A study of Mus musculus with 24 samples.

Results

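The Slc25 family holds the carriers that move nucleotides, phosphate, acylcarnitines, amino acids, cofactors and metals across the inner mitochondrial membrane. Its members were taken as all non-control probes whose gene name on the array starts with Slc25a and a number, which gave 53 probes of 44 genes. A probe counted as measured where its Cy5 signal averaged over 2 times the local background across the 24 arrays, which held for 29 probes of 26 genes. These 26 members stand among 9139 genes tested with the same filter, and the other 18 members were too dim to be read.

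The samples were whole *M. gastrocnemius* of 24 male C57BL/6JOlaHsd mice, with 12 mice in each group. Norm mice stayed at 20.9% oxygen and Hypox mice breathed 12% oxygen for 6 h, and the muscle was taken directly afterwards. All mice had arrived at 10 weeks of age, had eaten a diet with 40% of its energy as fat for 6 weeks, and were fasted during the exposure, so that neither group stands for lean or fed animals. Cy5 marked the RNA of 1 mouse on each array and Cy3 marked a reference pooled from the samples, and every value below is a log2 ratio of that mouse over the pool unless another scale is named. A log2 ratio can be compared between mice for 1 gene but says nothing on the level of a gene against another gene.

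The carriers share a fold built from repeats, and most swap a substrate on the matrix side for a partner on the cytosolic side. In muscle the ADP/ATP and phosphate carriers feed ATP synthase, the carnitine-acylcarnitine carrier brings in long-chain fatty acids, and the aspartate-glutamate and oxoglutarate carriers carry the electrons of cytosolic NADH inward. Other members supply coenzyme A, nucleotides, iron and amino acids to the matrix.

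The arrays lay on 6 slides of 4, with 2 arrays of each group per slide. An array's mean Cy5 signal lay between 58.3 and 933 for Norm and between 63.5 and 1014 for Hypox, and the 4 arrays of the slide with the lowest signal lay between 58.3 and 102. The scanner software called 9.42% to 37.3% of the spots of a Norm array and 12.0% to 37.8% of those of a Hypox array well above background. All 8 skeletal muscle markers were well above background on every array. Between the groups, 7 of 7 slow fiber markers had a difference above 0, where 58.8% of all genes did. Of these markers, *Tnni1* and *Tnnc1* rose with P under 0.05, where 7.12% of all genes rose. The mean log2 ratio of the 7 slow fiber markers lay between -2.11 and 0.54 in Norm and between -0.30 and 0.18 in Hypox. Of 5 adipocyte markers tested, *Adipoq* and *Cfd* fell, where 5.03% of all genes fell. The mean of the 5 lay between -0.68 and 0.97 in Norm and between -0.72 and -0.12 in Hypox. Of 5 peripheral nerve markers, 3 fell, *Prx* and *Pmp22* among them, against the same 5.03% of all genes. The mean of the 5 nerve markers lay between -0.39 and 0.43 in Norm and between -0.67 and 0.098 in Hypox. *Cdh5* (1 of 3 endothelial markers tested), *Mylpf* (1 of 8 muscle markers) and *Sftpc* (the 1 of 5 lung markers that passed the filter) rose. The other endothelial markers, *Kdr* (-0.15) and *Tie1* (-0.0043), had differences below 0. Of the 8 muscle markers 3 had a difference above 0, with a median of -0.16. Of the red blood cell markers 0 of 3 passed, and of the macrophage markers 0 of 2. The part of these markers in the carrier values was not tested. In whole muscle, fewer cells of a type and less RNA per cell cannot be told apart.

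Across the family, 5 of the 26 measured members (19.2%) passed P 0.05, against a background of 12.2% of all 9139 genes. *Slc25a25*, *Slc25a20*, *Slc25a14* and *Slc25a22* rose (4 of 26, with a background of 7.12%) and *Slc25a33* fell (1 of 26, with a background of 5.03%). After Benjamini-Hochberg adjustment over all genes, limma left 0 members under 0.05, with a smallest adjusted P of 0.200, while 0.339% of all genes passed. The methods' t-test also left 0 members after adjustment. The difference was above 0 in 15 members (57.7%) and below 0 in 11, and 58.8% of all genes were above 0. The median log2 fold change was 0.040 over the members and 0.029 over all genes. The members' differences ranged from -0.25 for *Slc25a4* to 0.72 for *Slc25a16*, but both ends moved with the data used. *Slc25a16* was 0.15 without Hypox replicate 12. *Slc25a4* turned positive after median centring (0.57), in the deposited values (0.39), in the scanner's processed signals (0.16) and in Cy5 by itself (0.053). It stayed below 0 in the other settings. With arrays centred on their median in place of loess, 0 members and 0.35% of all genes passed, and the median of all genes moved to 0.25. The values given below for median centring are not corrected for that shift.

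**Figure D1:**
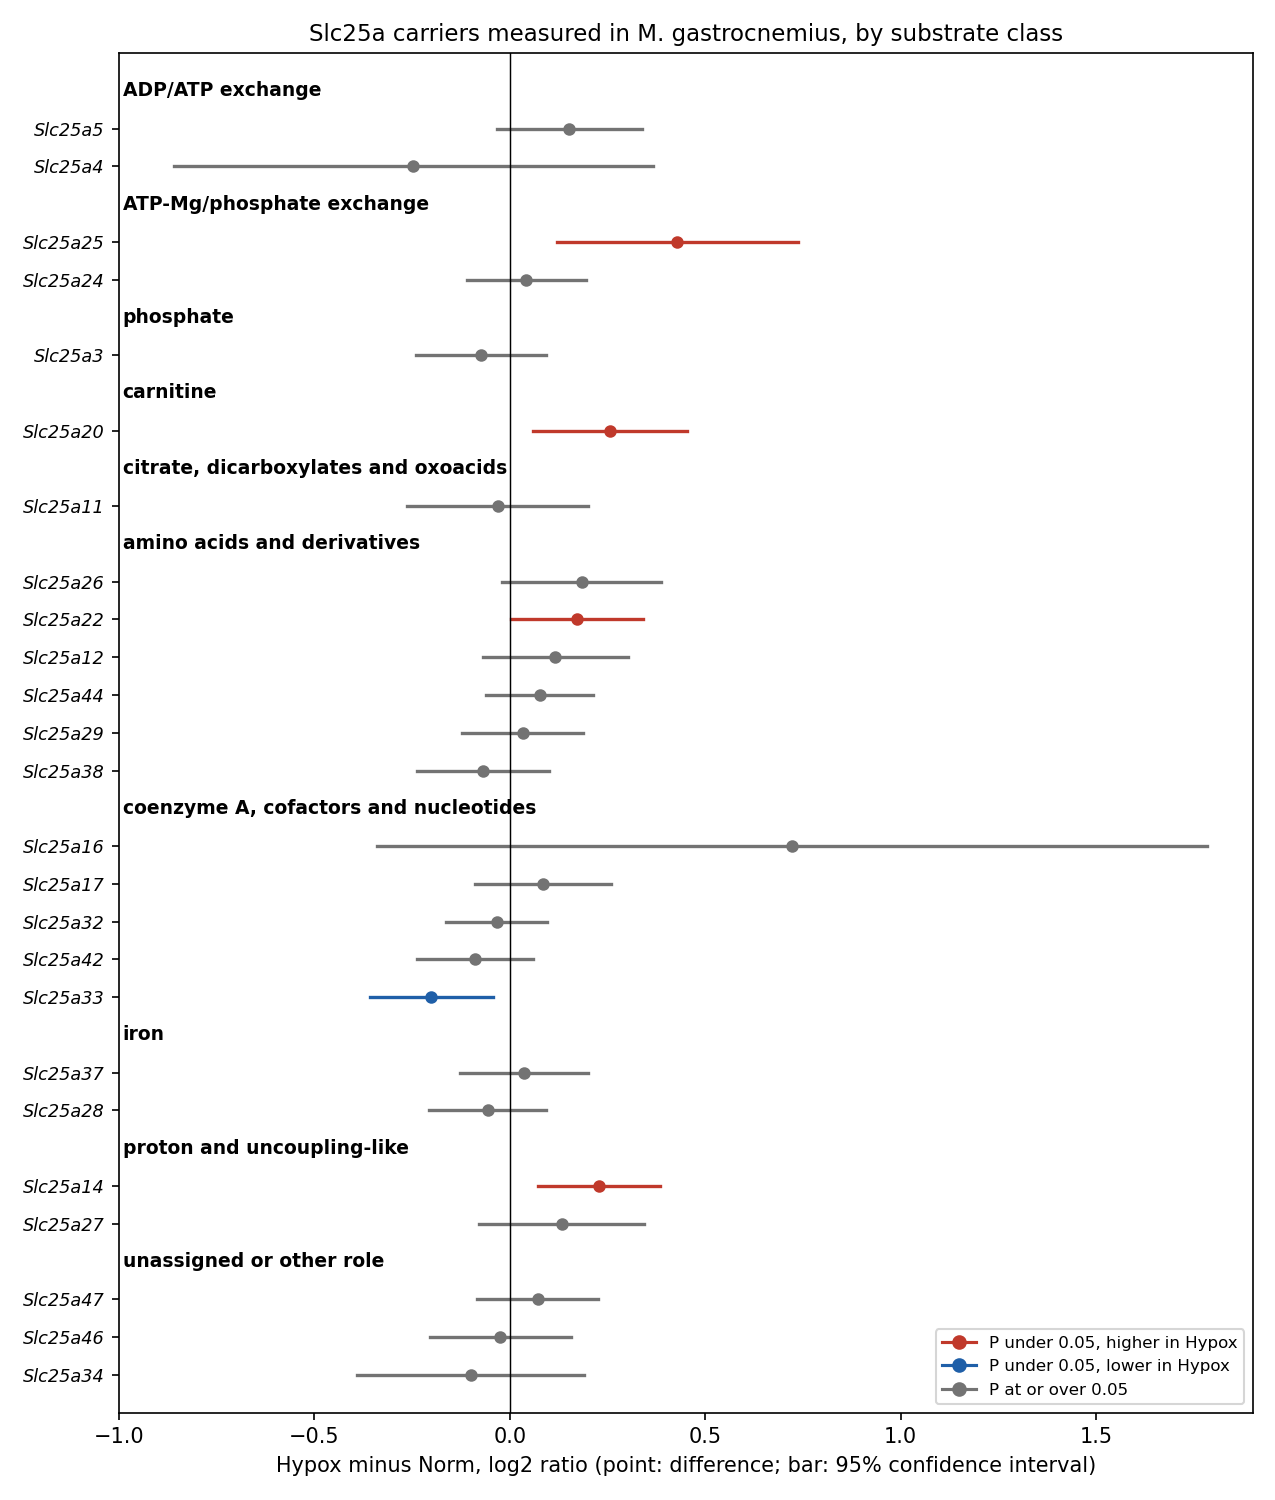
Difference between Hypox and Norm for 25 of the 26 measured Slc25a carriers, by the kind of substrate they move (x axis: log2 ratio of Hypox minus Norm; points are differences, bars 95% confidence intervals, 12 mice per group). *Slc25a25*, *Slc25a20*, *Slc25a14* and *Slc25a22* lie to the right of 0 and *Slc25a33* to the left, and the widest bars are those of *Slc25a16* and *Slc25a4*.

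The promoters of 4 of the 5 carriers that passed are printed here because these are the members on which the family's result turns. They are RefSeq windows from 250 bases before to 50 bases after a transcript start (GRCm38.p6), written 5′ to 3′ on the gene's strand, with matches to 4 searched motifs in capitals. *Slc25a25* has 3 such starts, and the one shown (chr2:32424017-32424316, minus strand) is the one with a match. *Slc25a20* has 1 (chr9:108661886-108662185, plus strand), *Slc25a14* has 3 and the most upstream is shown (chrX:48623198-48623497, plus strand), and *Slc25a33* has 1 (chr4:149774218-149774517, minus strand).
Slc25a25: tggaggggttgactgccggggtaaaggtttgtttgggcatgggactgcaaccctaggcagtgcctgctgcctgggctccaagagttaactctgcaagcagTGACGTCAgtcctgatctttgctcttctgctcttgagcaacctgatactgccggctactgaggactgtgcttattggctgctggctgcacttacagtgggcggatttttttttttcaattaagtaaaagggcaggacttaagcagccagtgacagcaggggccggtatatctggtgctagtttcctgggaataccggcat
Slc25a20: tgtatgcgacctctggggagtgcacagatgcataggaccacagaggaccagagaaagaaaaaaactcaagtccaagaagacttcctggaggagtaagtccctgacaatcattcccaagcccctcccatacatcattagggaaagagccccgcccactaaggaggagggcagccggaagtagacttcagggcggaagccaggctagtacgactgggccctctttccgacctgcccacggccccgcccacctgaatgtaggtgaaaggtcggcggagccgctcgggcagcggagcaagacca
Slc25a14: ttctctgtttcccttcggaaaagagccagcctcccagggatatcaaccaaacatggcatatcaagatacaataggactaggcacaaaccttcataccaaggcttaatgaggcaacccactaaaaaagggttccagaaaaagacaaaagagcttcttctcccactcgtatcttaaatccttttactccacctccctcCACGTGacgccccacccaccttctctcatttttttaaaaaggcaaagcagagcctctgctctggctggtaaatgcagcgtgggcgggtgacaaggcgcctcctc
Slc25a33: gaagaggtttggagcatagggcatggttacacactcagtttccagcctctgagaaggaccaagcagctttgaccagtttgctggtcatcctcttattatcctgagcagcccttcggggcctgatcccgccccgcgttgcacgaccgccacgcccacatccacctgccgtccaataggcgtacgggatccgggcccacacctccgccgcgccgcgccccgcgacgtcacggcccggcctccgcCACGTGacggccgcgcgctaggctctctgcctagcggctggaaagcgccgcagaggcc

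The motifs were the hypoxia response element core ACGTG, the FOXO site GTAAACA, the cyclic AMP response element TGACGTCA and the ERR half-site AAGGTCA, each searched on both strands. Promoters were found for 19 of the 26 measured members, 25 windows in all. ACGTG was in 5 of these 25 windows (20.0%), of *Slc25a3*, *Slc25a14*, *Slc25a28* and *Slc25a33*, and in 19.6% of all 32851 windows. The *Slc25a14* windows with a match overlap and hold the same run of letters, which is counted in both. The remaining *Slc25a14* window holds none of the 4 motifs. The capitals in the *Slc25a14* and *Slc25a33* windows mark 2 overlapping matches on opposite strands, and they start 54 and 8 bases before the transcript start. TGACGTCA was in 1 of 25 windows, that of *Slc25a25* printed above, where it starts 150 bases before the start, and in 1.79% of all windows. AAGGTCA was in 1 of 25 windows, that of *Slc25a34*, and in 4.72% of all windows. GTAAACA was in 0 of 25 windows and in 3.65% of all windows. The *Slc25a20* window and the 3 windows of *Slc25a22* held none of the 4 motifs. *Slc25a14* and *Slc25a33*, which share the ACGTG match, moved in opposite directions. A match is a run of letters and not a site of binding.

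*Slc25a25* encodes a calcium-regulated carrier that exchanges ATP-Mg for phosphate and so sets the amount of adenine nucleotides in the matrix. Its brighter probe (mm9 chr2:32270275-32270334, minus strand) read between -0.34 and 0.27 in Norm, with a median of -0.065, and between -0.29 and 1.33 in Hypox, with a median of 0.37. The groups overlapped, but 7 of 12 Hypox mice lay above every Norm mouse. *Slc25a25* rose by 0.43 on the log2 scale (standard error 0.15, 95% confidence interval 0.12 to 0.74, P = 0.00803, adjusted P = 0.225), a fold of 1.35. The spread within Hypox (SD 0.52) was larger than within Norm (SD 0.20). The call of *Slc25a25* was lost with median centring (0.60, P = 0.0718).

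The rise of *Slc25a25* was unequal between slides. On slides 4, 5 and 6 the mean of the 2 Hypox arrays exceeded that of the 2 Norm arrays by 0.82, 1.06 and 0.63. On slides 1, 2 and 3, which had the lowest Cy5 signal, the difference was 0.10, -0.059 and 0.016. Slide and Cy5 brightness move together here, and their part in the difference was not tested. A second, dimmer probe of *Slc25a25* (mm9 chr2:32270490-32270549) averaged 2.31 times the background against 6.06 for the brighter one. It gave a log2 fold change of 0.12 (P = 0.276), and the 2 probes' changes differed by 0.31 (2-sided permutation test over 24 arrays, p = 0.155, 0.309 after adjustment over 4 pairs of probes). The other measured carrier of this class, *Slc25a24*, had a log2 fold change of 0.042. Without Norm replicate 5 it was 0.0058 and without Norm replicate 3 it was 0.074. *Slc25a23* and *Slc25a41* were too dim to be read.

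**Figure D2:**
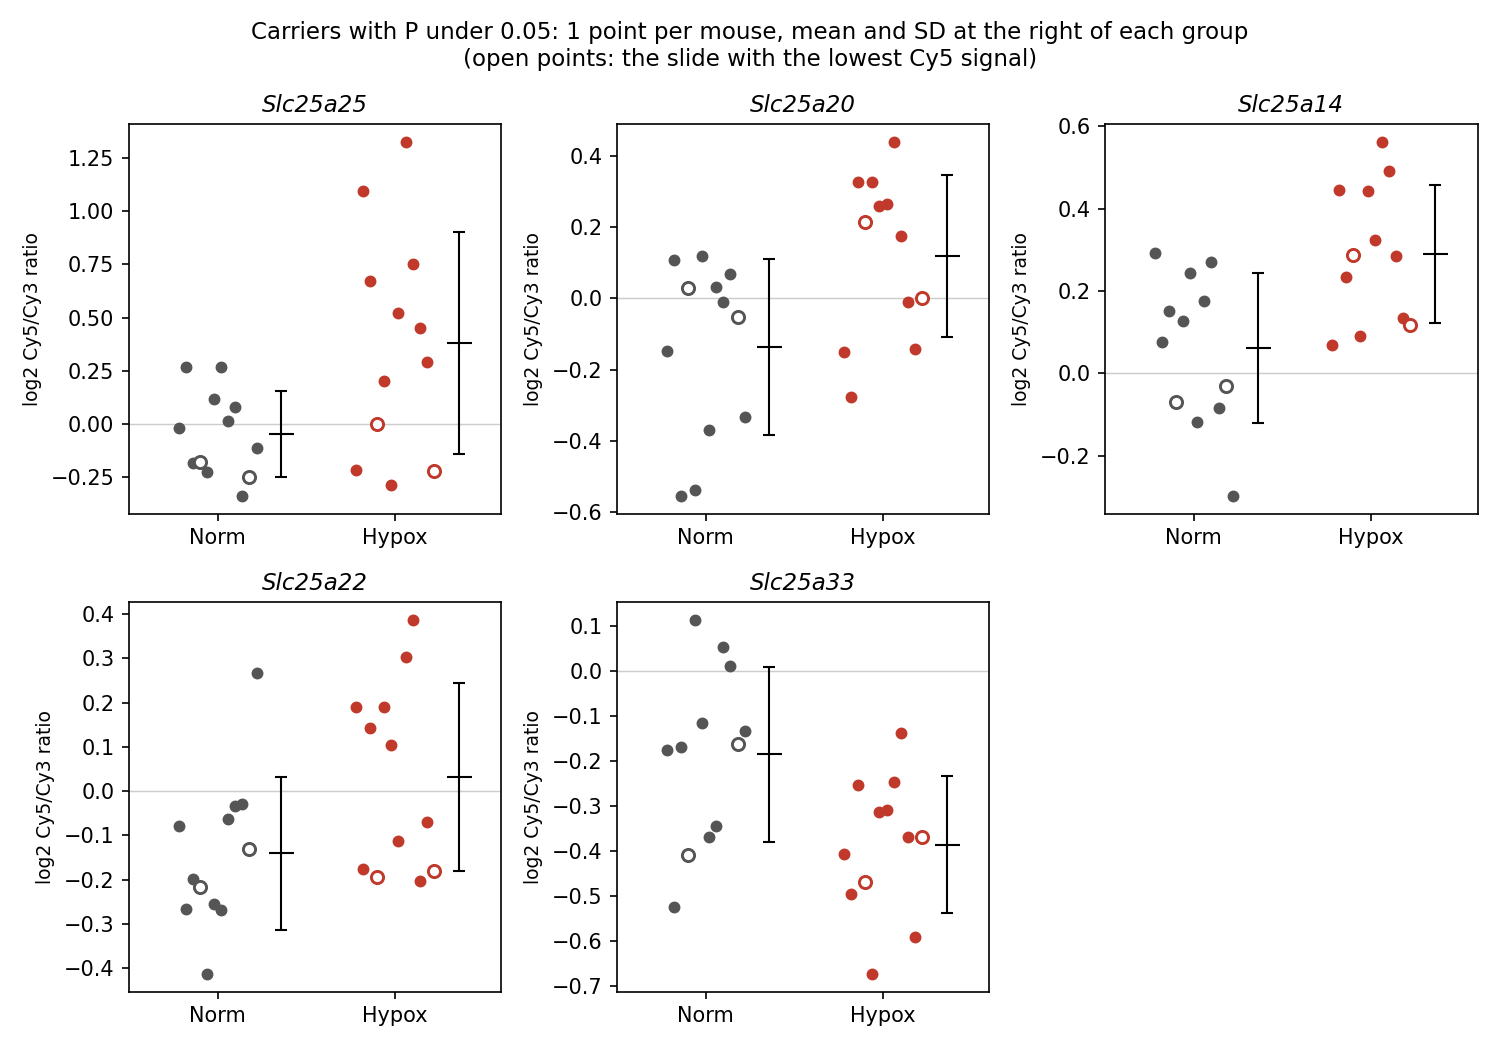
Log2 Cy5/Cy3 ratio of the 5 carriers with P under 0.05 (y axis) in Norm and Hypox, with 1 point per mouse, open for the slide with the lowest Cy5 signal, and the mean with its SD (n = 12) beside each group. In *Slc25a25* and *Slc25a20*, 7 of the 12 Hypox mice lie above all Norm mice, and in no panel do the groups separate.

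*Slc25a20* encodes the carnitine-acylcarnitine carrier, which passes long-chain acylcarnitines inward for β-oxidation. Its probe (mm9 chr9:108585399-108585458, plus strand) read between -0.55 and 0.12 in Norm, with a median of -0.031, and between -0.28 and 0.44 in Hypox, with a median of 0.20. Of the 12 Hypox mice, 7 lay above every Norm mouse, and 4 Norm mice lay below every Hypox mouse. *Slc25a20* rose by 0.26 on the log2 scale (standard error 0.096, P = 0.0129, adjusted P = 0.262). It was above 0 on 6 of 6 slides, from 0.054 to 0.66. The call was lost with median centring (0.42, P = 0.131). It was kept with the scanner software's processed signals (0.39, P = 0.00593), the Cy5 channel alone (0.23, P = 0.0355) and the deposited values (0.30, P = 0.0222).

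Of 4 genes of the carnitine shuttle around *Slc25a20* tested, 2 rose and 0 fell, where 7.12% of all genes rose. *Cpt2*, the acyltransferase on the matrix side, rose by 0.36 (standard error 0.16, P = 0.0287, adjusted P = 0.339). *Cpt1a*, a minor outer-membrane isoform in muscle, rose by 0.14 (standard error 0.063, P = 0.0299, adjusted P = 0.345). *Cpt1b*, the main muscle isoform, had a log2 fold change of -0.019 (95% confidence interval -0.24 to 0.20). *Crat*, the carnitine acetyltransferase, had -0.076 (-0.12 without Norm replicate 3 and -0.045 without Hypox replicate 11). The call of *Cpt2* was lost without Norm replicate 5 (0.29, P = 0.0615), and that of *Cpt1a* without any of Hypox replicates 2, 3, 6 and 7 (0.11 to 0.13, P = 0.0506 to 0.0596). Without Hypox replicate 2, *Cpt2* was 0.24. Both calls were also lost with the scanner software's processed signals (*Cpt2* 0.25, P = 0.0622, and *Cpt1a* 0.18, P = 0.0972), the Cy5 channel alone (P = 0.0886 and 0.280), the deposited values (0.60, P = 0.0863, and 0.12, P = 0.102) and median centring (0.75, P = 0.168, and 0.27, P = 0.169), and that of *Cpt1a* with the replicate number as a block (P = 0.0582). With median centring the median of all genes was 0.25, close to the value of *Cpt1a*. Beside these genes, 2 of the 7 slow fiber markers rose, and the part of these markers was not tested.

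*Slc25a14* (also Ucp5) is an uncoupling protein-like carrier best known from the nervous system. Its probe (mm9 chrX:46015410-46015469, plus strand) read between -0.30 and 0.29 in Norm, with a median of 0.10, and between 0.070 and 0.56 in Hypox, with a median of 0.29. No Hypox mouse was below 0, and 5 Norm mice lay below every Hypox mouse. The log2 fold change was 0.23 (standard error 0.076, P = 0.00565, adjusted P = 0.200), the smallest P of the family, and was above 0 on 6 of 6 slides. The probe was dim, at 2.86 times the background, and the scanner software called it well above background in 8 Norm mice and 10 Hypox mice. With the scanner software's processed signals the log2 fold change was 0.49 and the adjusted P 0.0446, the 1 member and setting under 0.05. With the authors' deposited values it was 0.13 (P = 0.231). With median centring it was 0.28 (P = 0.131), close to the median of all genes in that setting (0.25). Of the 5 peripheral nerve markers 3 fell, where 5.03% of all genes fell, and their part in the *Slc25a14* values was not tested. The related *Slc25a27* (Ucp4), also near the background at 2.27 times, differed by 0.13 (P = 0.206), or 0.045 without Hypox replicate 2, and *Slc25a30* was too dim.

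*Ucp3*, the uncoupling protein homolog of skeletal muscle, belongs to the same family under another name. It read between -0.96 and 0.084 in Norm, with a median of -0.28, and between -0.59 and 0.25 in Hypox, with a median of -0.14. Of the Hypox mice, 4 lay above every Norm mouse and 3 Norm mice lay below every Hypox mouse. *Ucp3* rose by 0.31 (standard error 0.11, P = 0.00962, adjusted P = 0.242), and its second probe gave 0.22 (P = 0.00766). The call of *Ucp3* was lost with the scanner software's processed signals (0.32, P = 0.144), the Cy5 channel alone (0.22, P = 0.178) and median centring (0.47, P = 0.093). The other 3 such genes tested had differences of 0.097 (*Mtch1*), 0.13 (*Mtch2*) and 0.10 (*Slc25a51*, the NAD carrier) and did not pass, while *Ucp1*, *Ucp2* and *Slc25a53* did not pass the filter. Without Norm replicate 9 *Mtch2* was 0.072, and without Hypox replicate 2 *Slc25a51* was 0.063.

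**Figure D3:**
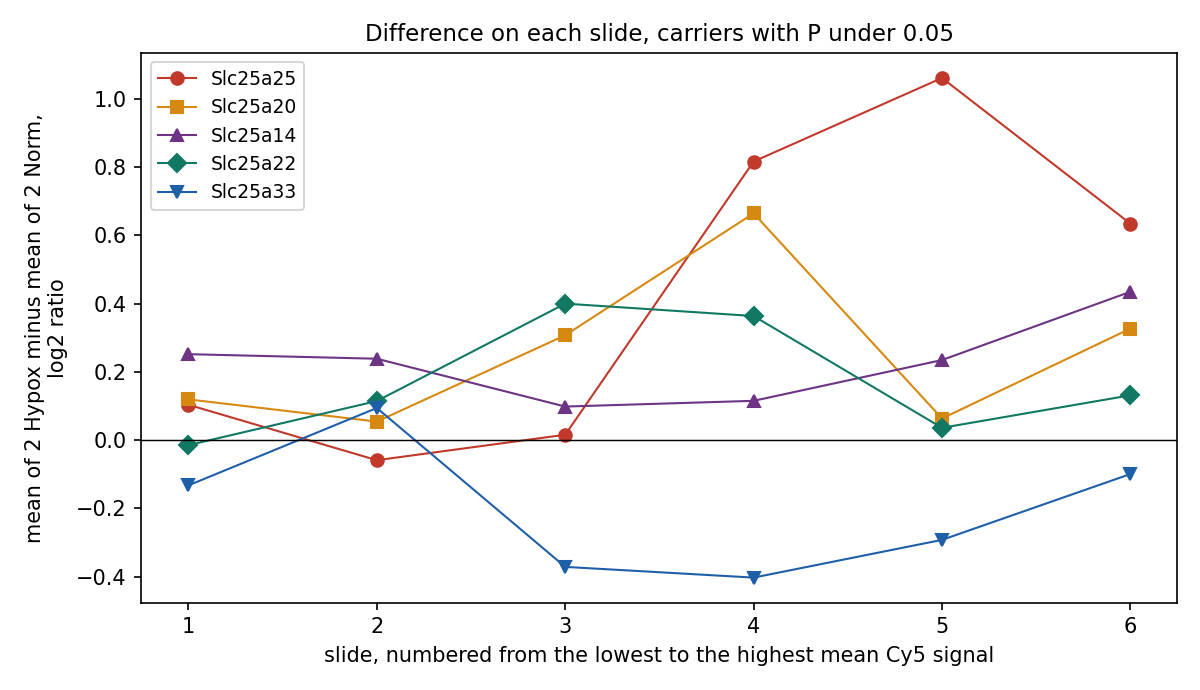
Mean of the 2 Hypox arrays minus mean of the 2 Norm arrays (y axis, log2 ratio) on each of the 6 slides, numbered from the lowest to the highest mean Cy5 signal (x axis), for the 5 carriers with P under 0.05. *Slc25a20* and *Slc25a14* stay above 0 on all slides, *Slc25a33* is below 0 on 5, and *Slc25a25* is near 0 on slides 1 to 3 and between 0.63 and 1.06 on slides 4 to 6.

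Carriers of amino acids and their derivatives made up the largest class, with 6 of 12 measured and 5 of these above 0. *Slc25a22*, a glutamate carrier, read between -0.41 and 0.27 in Norm, with a median of -0.16, and between -0.20 and 0.39 in Hypox, with a median of 0.017. The groups overlapped widely, with 2 Hypox mice above every Norm mouse and 5 Norm mice below every Hypox mouse. Its probe lies at mm9 chr7:148615651-148615710. It rose by 0.17 (standard error 0.082, P = 0.0452, adjusted P = 0.397). The call was lost without any of 13 of the 24 arrays (Norm replicates 2, 3, 4, 5, 6, 7 and 11 and Hypox replicates 1, 3, 5, 6, 8 and 9), with values of 0.14 to 0.17 and P of 0.0532 to 0.0911. It was also lost with the Cy5 channel alone (0.13, P = 0.324), with the deposited values (0.23, P = 0.0709) with the filter at 4 times the background (P = 0.0508) with median centring (0.34, P = 0.217) and with the replicate number as a block (P = 0.0638), and kept with the scanner software's processed signals (0.36, P = 0.0219).

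*Slc25a12*, the aspartate-glutamate carrier of muscle and a part of the malate-aspartate shuttle, read between -0.30 and 0.26 in Norm, with a median of 0.026, and between -0.21 and 0.74 in Hypox, with a median of 0.098. Its log2 fold change was 0.12 (95% confidence interval -0.069 to 0.30, P = 0.208), and 1 Hypox mouse, replicate 5, lay above every Norm mouse. Without it the difference was 0.059 (P = 0.454). Its sister carrier *Slc25a13* was too dim to be read. Of the 4 enzymes of the malate-aspartate shuttle tested, 0 passed, against 12.2% of all genes. *Slc25a26*, which imports S-adenosylmethionine, had 0.18 (P = 0.0757) and 0.13 (P = 0.0868) from its 2 probes, and the mean of both passed (0.16, P = 0.0238). It also passed with the scanner software's processed signals (0.25, P = 0.035), with slide as a block (P = 0.0386) and without Norm replicate 6 or any of Hypox replicates 1, 4 and 8 (0.21 to 0.22, P = 0.0313 to 0.0497). *Slc25a44*, a carrier of branched-chain amino acids, had 0.077, *Slc25a29*, a carrier of basic amino acids, 0.033, and *Slc25a38*, the glycine carrier, -0.069. Single arrays moved these values. *Slc25a44* was 0.048 without Norm replicate 3. *Slc25a29* was 0.0013 without Hypox replicate 10 and 0.063 without Hypox replicate 4. *Slc25a38* was -0.11 without Hypox replicate 9 and -0.027 without Hypox replicate 12.

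Carriers of coenzyme A, cofactors and nucleotides held the 1 member that fell. *Slc25a33*, which imports pyrimidine nucleotides for mitochondrial DNA and RNA, had its probe at mm9 chr4:149118713-149118772, minus strand. It read between -0.53 and 0.11 in Norm, with a median of -0.17, and between -0.67 and -0.14 in Hypox, with a median of -0.37. All 12 Hypox mice were below 0, 5 Norm mice lay above every Hypox mouse, and 1 Hypox mouse was above the Norm median. The log2 fold change was -0.20 (standard error 0.076, P = 0.0139, adjusted P = 0.266), with a lower mean in Hypox on 5 of 6 slides. With median centring it was 0.086, below the median of all genes in that setting (0.25). The call was also lost with the scanner software's processed signals (-0.19, P = 0.146), the Cy5 channel alone (-0.15, P = 0.192) and the deposited values (-0.092, P = 0.674). A second, dimmer probe of *Slc25a33* averaged 1.89 times the background and did not pass the filter. In limma's fit over all probes without the filter, that probe gave -0.0098 (P = 0.897).

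*Slc25a42*, which exchanges coenzyme A for adenine nucleotides, read between -0.30 and 0.11 in Norm, with a median of -0.14, and between -0.61 and 0.043 in Hypox, with a median of -0.19. Its log2 fold change was -0.089 (95% confidence interval -0.24 to 0.059, P = 0.228), and 3 Hypox mice lay below every Norm mouse. Without Hypox replicate 10 it was -0.055. Of 4 genes of coenzyme A synthesis tested, 1 rose, *Ppcs*, where 7.12% of all genes rose. The difference of *Ppcs* was 0.20 (standard error 0.068, P = 0.00694, adjusted P = 0.215). The call of *Ppcs* was lost with the deposited values (0.17, P = 0.0873) and median centring (0.36, P = 0.141). *Slc25a17*, the peroxisomal member, had 0.086 (0.044 without Hypox replicate 10) and did not pass. *Slc25a32*, linked to folate and FAD, had -0.034 (-0.0072 without Hypox replicate 12) and did not pass.

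*Slc25a16*, linked to coenzyme A in the matrix, had the largest difference of the family and the largest error, 0.72 (standard error 0.52, P = 0.175). In Norm it read between -0.25 and 0.23, with a median of -0.024. In Hypox it read between -0.29 and 7.02, with a median of 0.18. The value of 7.02 was that of Hypox replicate 12, on the slide with the lowest Cy5 signal, and the next highest of all arrays was 0.33. The deposited log2 value of the authors for the same probe was also highest on that array, 11.8 against at most 6.53 on the others. Without Hypox replicate 12 the log2 fold change was 0.15 (P = 0.0648). The probe then averaged 2.71 times the background in place of 4.48, so that it stays measured without that array.

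*Slc25a4* is the ADP/ATP carrier of heart and skeletal muscle, and its probe, printed in 10 spots, was the brightest of the family at 2629 times the background. It read between 0.44 and 3.57 in Norm, with a median of 0.95, and between 0.56 and 2.91 in Hypox, with a median of 0.91. The groups overlapped almost fully, and the 3 highest of the 24 values (3.57, 2.91 and 2.87) all came from the slide with the lowest Cy5 signal. The log2 fold change was -0.25 (95% confidence interval -0.86 to 0.37, P = 0.416), and -0.11 (P = 0.376) without that slide. Leaving out 1 array moved it from -0.41, without Hypox replicate 4, to -0.043, without Norm replicate 4. Its sign turned with the scanner software's processed signals (0.16), the Cy5 channel alone (0.053), the deposited values (0.39) and median centring (0.57). No direction is therefore given for *Slc25a4*.

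*Slc25a5*, the ADP/ATP carrier found in most tissues, read between -0.38 and 0.41 in Norm, with a median of -0.00062, and between -0.44 and 0.47 in Hypox, with a median of 0.18. Of the 12 Hypox mice, 11 were above the Norm median, and the last, replicate 2, was below every Norm mouse. *Slc25a5* had a log2 fold change of 0.15 (95% confidence interval -0.033 to 0.34, P = 0.102). It was 0.21 (P = 0.0135) without Hypox replicate 2 and 0.19 (P = 0.0385) without Norm replicate 12. With array weights it was 0.20 (P = 0.00939). The testis form *Slc25a31* was too dim to be read.

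*Slc25a3*, the carrier that brings in phosphate for ATP synthesis, read between -0.52 and 0.30 in Norm, with a median of -0.063, and between -0.39 and 0.048 in Hypox, with a median of -0.099. No Hypox mouse lay above every Norm mouse. The log2 fold change was -0.074 (95% confidence interval -0.24 to 0.092, P = 0.367). Without Norm replicate 5 it was -0.12, and without Norm replicate 12 it was -0.041. A dimmer second probe gave 0.077 (P = 0.338). The changes of the 2 probes differed by -0.15 (2-sided permutation test over 24 arrays, p = 0.00511, 0.0204 after adjustment over 4 pairs of probes), so that the sign of *Slc25a3* depends on the probe. Of the 6 energy transfer partners tested, the voltage-dependent channels, the creatine kinases and cyclophilin D, 0 passed, against 12.2% of all genes.

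**Figure D4:**
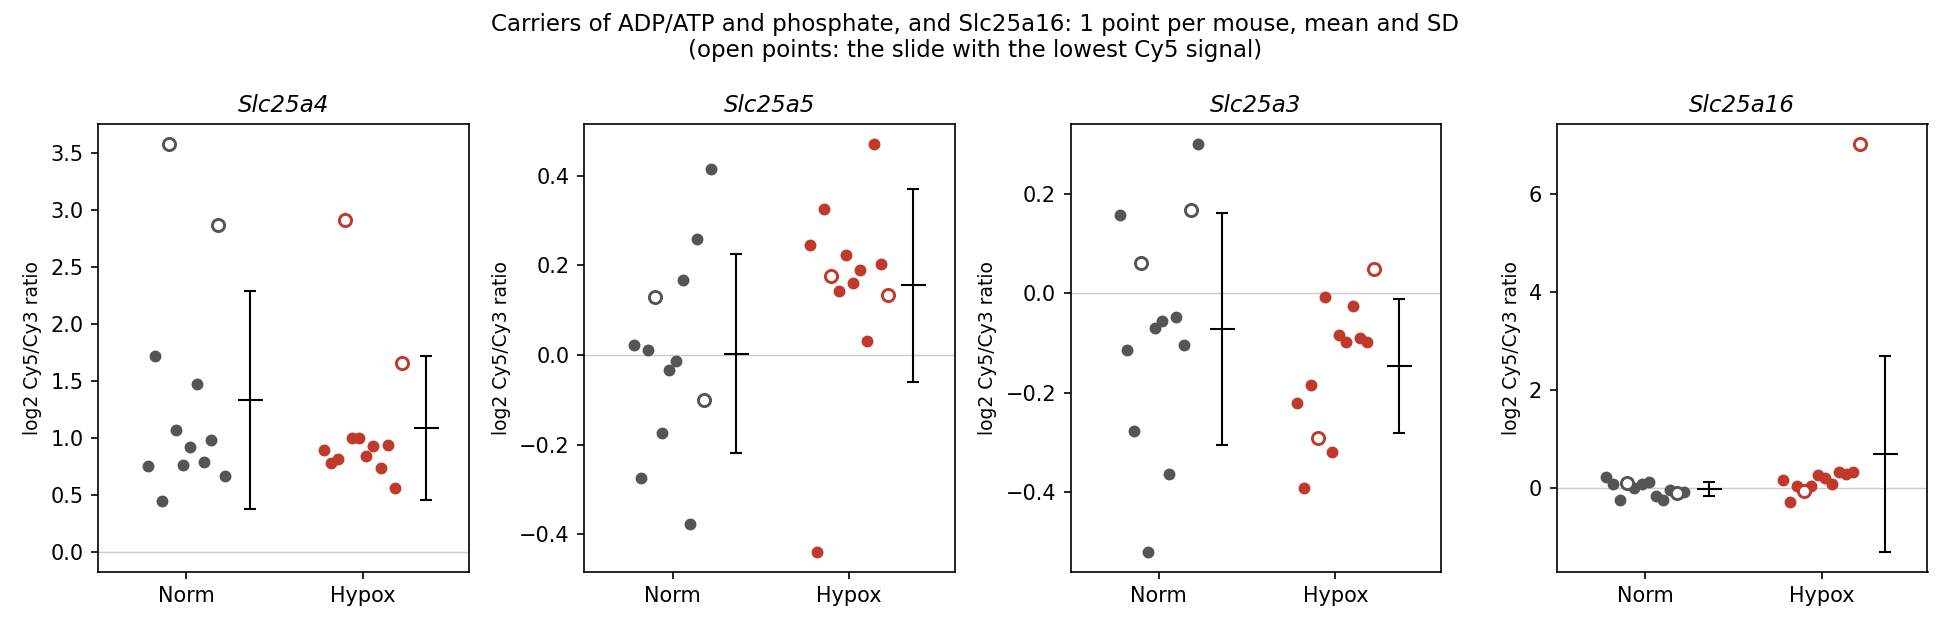
Log2 Cy5/Cy3 ratio (y axis) of *Slc25a4*, *Slc25a5*, *Slc25a3* and *Slc25a16* in Norm and Hypox, with 1 point per mouse, open for the slide with the lowest Cy5 signal, and the mean with its SD (n = 12) beside each group. The 3 highest *Slc25a4* values and the single *Slc25a16* value of 7.02 are open points.

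*Slc25a11*, the oxoglutarate-malate carrier of the malate-aspartate shuttle, read between -0.45 and 0.86 in Norm, with a median of 0.16, and between -0.25 and 0.68 in Hypox, with a median of 0.093. All 12 Hypox mice lay within the Norm range. Its log2 fold change was -0.031 (95% confidence interval -0.26 to 0.20, P = 0.787). The other 3 carriers of citrate, dicarboxylates and oxoacids, *Slc25a1*, *Slc25a10* and *Slc25a21*, were too dim. Of 6 enzymes of citrate and oxoacid metabolism, 0 passed, against 12.2% of all genes.

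Pyruvate enters through a carrier of another family, and both of its subunits were tested. *Mpc1* read between 0.027 and 1.82 in Norm, with a median of 0.63, and between -0.27 and 0.83 in Hypox, with a median of 0.25. It fell by 0.54 on the log2 scale (standard error 0.15, P = 0.00114, adjusted P = 0.105), with 4 Norm mice above every Hypox mouse and 4 Hypox mice below every Norm mouse. The difference was -0.13 (P = 0.759) in the deposited values and 0.053 with median centring, below the median of all genes there (0.25). *Mpc2* had a log2 fold change of 0.035 (95% confidence interval -0.13 to 0.20).

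Both iron carriers were measured. *Slc25a37*, the mitoferrin of red cell precursors, read between -0.64 and -0.086 in Norm, with a median of -0.27, and between -0.57 and 0.058 in Hypox, with a median of -0.21. The groups overlapped, with 4 Hypox mice above every Norm mouse. Its log2 fold change was 0.037 (95% confidence interval -0.13 to 0.20, P = 0.646), while the 3 red blood cell markers tested all had differences above 0 and none passed. Without Norm replicate 9 *Slc25a37* was 0.0020, and without Hypox replicate 9 it was 0.070. *Slc25a28*, the mitoferrin of other tissues, had -0.056 (95% confidence interval -0.21 to 0.093). Without Hypox replicate 10 it was -0.019, and without Hypox replicate 3 it was -0.084.

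**Figure D5:**
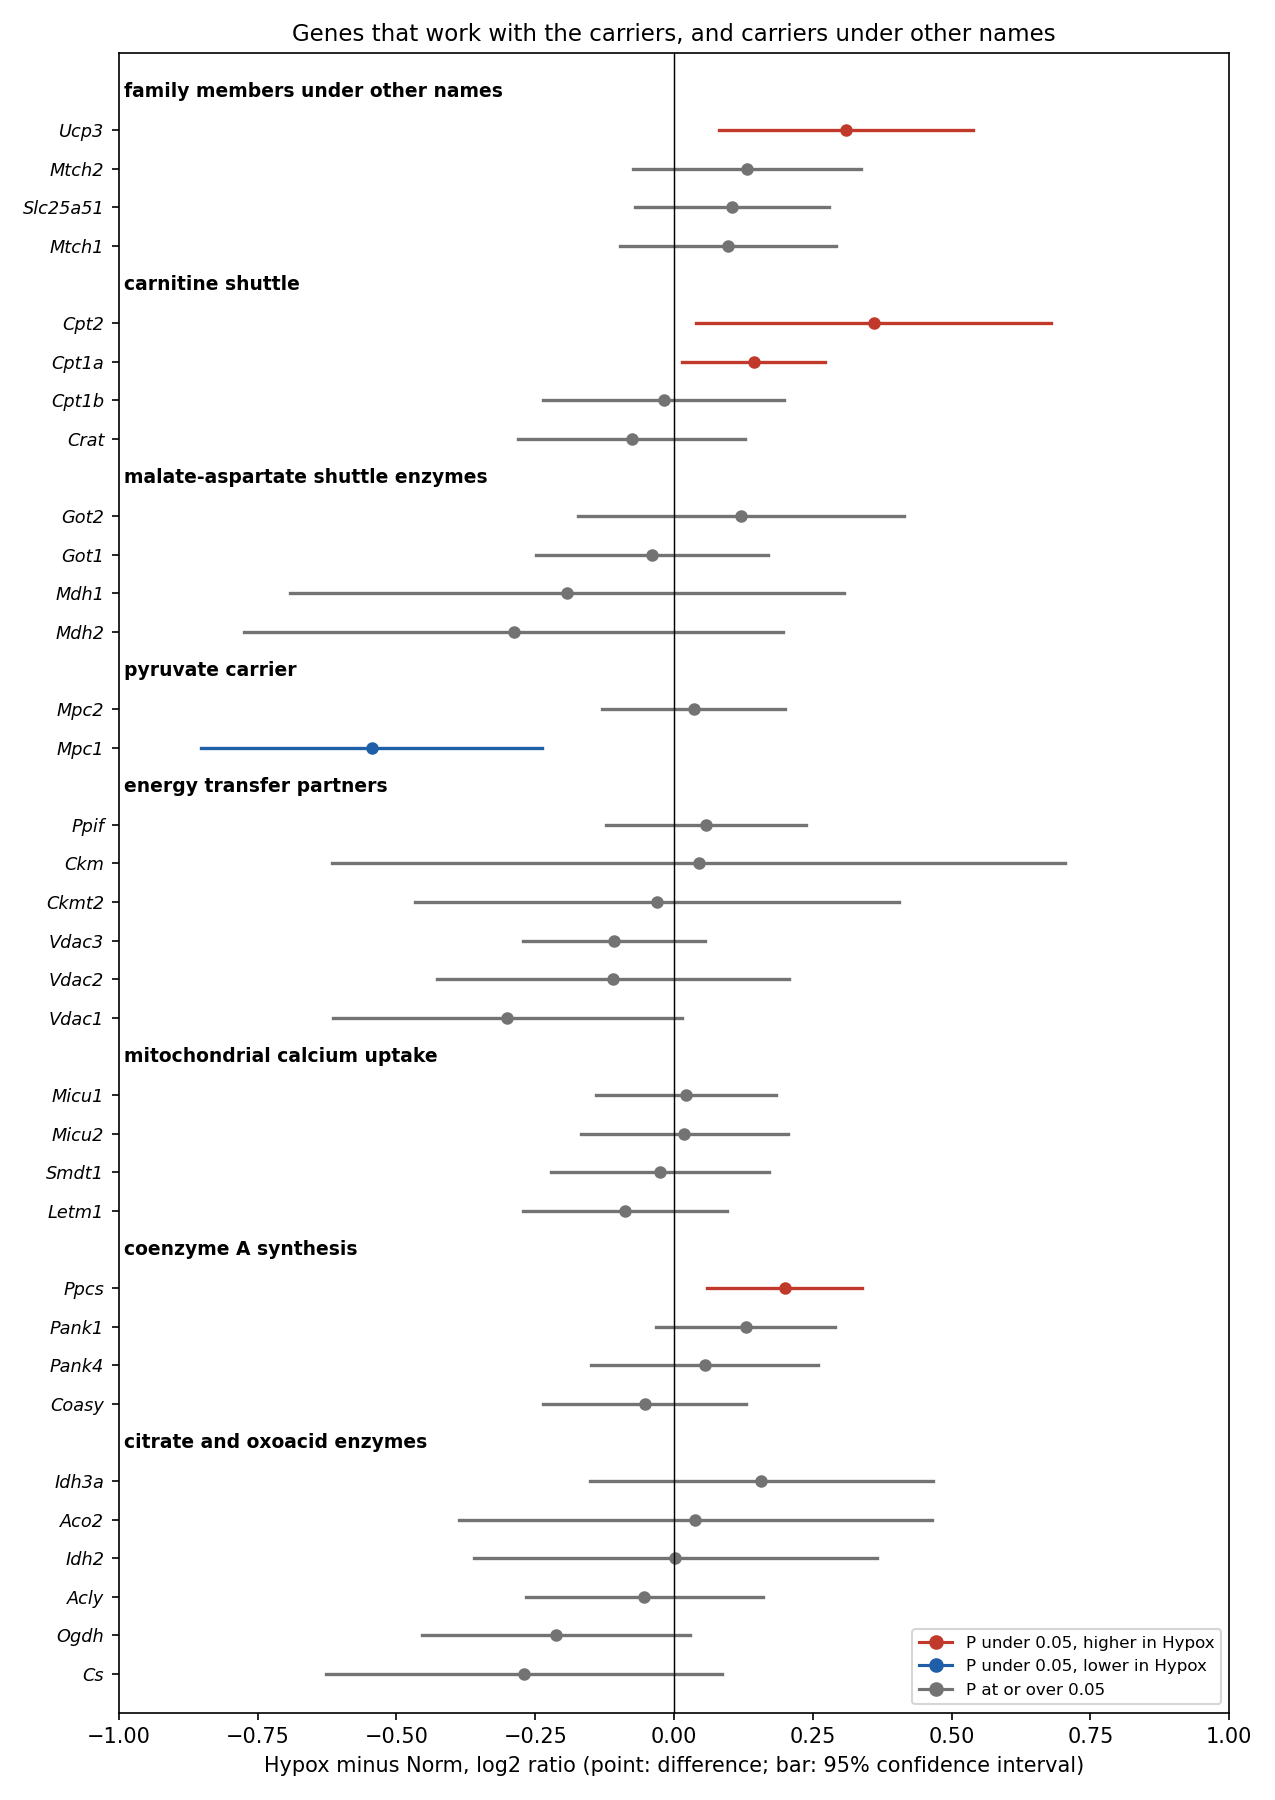
Difference between Hypox and Norm for 8 groups of genes that work with the carriers or belong to the family under another name (x axis: log2 ratio of Hypox minus Norm; points are differences, bars 95% confidence intervals, 12 mice per group). *Ucp3*, *Cpt2*, *Cpt1a* and *Ppcs* lie to the right of 0 and *Mpc1* to the left, while the malate-aspartate, energy transfer, calcium uptake, and citrate and oxoacid groups hold no gene with P under 0.05.

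Members with another or no settled role had small differences, -0.10 for *Slc25a34*, -0.024 for the outer-membrane member *Slc25a46* and 0.072 for *Slc25a47*. Leaving out 1 array moved *Slc25a34* between -0.17 and -0.023 (without Norm replicates 8 and 9) and *Slc25a47* down to 0.036 (without Hypox replicate 5). Of 4 genes of mitochondrial calcium uptake tested, which set the calcium that *Slc25a25* and *Slc25a12* respond to, 0 passed, against 12.2% of all genes. Within groups, the SD pooled over Norm and Hypox had a median of 0.20 over the members, was lowest at 0.13, and reached at most 0.40 without *Slc25a4* (0.81) and *Slc25a16*. The SD was larger in Hypox than in Norm in 15 of 26 members.

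The 18 members that were too dim were *Slc25a1*, *Slc25a2*, *Slc25a10*, *Slc25a13*, *Slc25a15*, *Slc25a18*, *Slc25a21*, *Slc25a23*, *Slc25a30*, *Slc25a31*, *Slc25a35*, *Slc25a36*, *Slc25a39*, *Slc25a40*, *Slc25a41*, *Slc25a43*, *Slc25a45* and *Slc25a48*. The nearest to the filter was *Slc25a36*, at 1.80 times the background and well above background on 11 of 24 arrays. Just inside it were *Slc25a24* and *Slc25a32*, both at 2.10 times. A probe below the filter gives no evidence that the carrier is absent from muscle.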

How the data were processed

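The authors deposited, for each of 24 arrays, the intensity of every spot as written by Agilent Feature Extraction 10.7.3.1 (mean signal and local background of Cy5 and Cy3, on a linear scale, not normalized between arrays), and a series table of normalized log2 values. That table had the same median (6.58) in every column, and whether it uses the Cy3 channel is not given in the sources used here, so it served as an alternative. Which dye held the mouse was taken from the descriptions, because 5 Hypox samples carry labels that name different dyes. The columns of the series table carry the samples' identifiers, and the samples' titles gave the group and replicate.

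Control spots and 7260 flagged spot readings were left out. The mean signal was corrected with normexp (offset 50), log2 ratios were loess-normalized array by array and spots of a probe averaged. The offset and the background pull ratios of dim probes towards 0. Probes were kept with a mean Cy5 signal over 2 times the background and at most 4 arrays without a value, and matched to genes through RefSeq (GRCm38.p6), which named 11254 of 14312 probes. The probe with the highest mean intensity stood for its gene, giving 9139 genes, all of which entered limma's moderated test of Hypox against Norm without a block (P threshold 0.05 unadjusted, as in the study's methods, with Benjamini-Hochberg adjustment over all genes beside it). The number of arrays limits the precision.

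Group values, error and P are given for the members with P under 0.05 and for 10 carriers of muscle biology, of which 9 were measured. Other measured members are named with their log2 fold change in their substrate class, and *Slc25a16* and the genes outside the family were described further after their values were seen. Members and lists were chosen with earlier results of these data known, so their counts are descriptions read beside those over all genes. The values of 3 genes, which stay in the counts, are not reported here. The replicate numbers were checked for pairing: the correlation of same-numbered arrays ranged from -0.20 to 0.51 and was over 0.1 in 3 of 12 pairs. The numbers were therefore not used to pair the mice in the main test. Slide was not removed from these correlations, so they cannot exclude a pairing. The test was also checked on simulated arrays, 12 against 12: among 9139 genes it recovered, at an adjusted P of 0.05, 99.0% of 200 genes given a log2 change of 1, with 5 false calls, and with no change 5.11% of genes had an unadjusted P under 0.05. The simulated noise was normal and independent between genes, with each gene's SD in Norm for both groups and no slide effect. A log2 change of 1 is larger than the difference of any member called. Recovery of changes of the members' size, or with slide effects, was not tested. R 4.3.3, limma 3.58.1, Python 3.11.15, pandas 2.3.3 and matplotlib 3.10.9 were used.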

Additional observations from a re-analysis of the deposited data

How the results depend on the processing

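Of the 5 members with P under 0.05 (4 higher, 1 lower), 5 passed with the methods' t-test, where 12.1% of all genes passed, without a filter (8.67%), with the mean of a gene's probes (13.2%), with slide as a block (14.1%), with array weights (18.8%) and without the slide with the lowest Cy5 signal (14.0%). The call count was 6 without a filter (of 44 members, with *Slc25a40*), with the mean of probes or slide as a block (with *Slc25a26*) and with array weights (with *Slc25a5*). The replicate number as a block gave 4 calls, 3 higher and 1 lower, the same as before without *Slc25a22*, while 13% of all genes passed. The scanner software's processed signals gave 5 higher and 0 lower, with *Slc25a26* in place of *Slc25a33*, while 14.4% of all genes passed. The Cy5 channel alone gave 3, with 0 lower, while 8.01% of all genes passed. The deposited values gave 2, 2 of them higher and 0 lower (*Slc25a25* and *Slc25a20*), while 5.35% of all genes passed there. A filter at 4 times the background gave 3 of 18 members, 2 of them higher, while 12.5% of all genes passed. It no longer read *Slc25a14*, and *Slc25a22* lost its call. Median centring gave 0 in all, 0 higher and 0 lower, and a members' median of 0.27, when the median of all genes stood at 0.25 and 0.35% of all genes passed. Relative to that shift *Slc25a33* stayed below the median, and *Slc25a14* (0.28) lay close to it. The cause of these changes was not tested. Leaving out 1 array gave 4 to 6 calls, 3 to 5 higher and 1 lower, and a members' median of 0.021 to 0.058. *Slc25a25*, *Slc25a20*, *Slc25a14* and *Slc25a33* passed in all 24 such fits, and *Slc25a22* in 11.

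Signs turned as follows. With median centring *Slc25a3* had 0.42, *Slc25a4* 0.57, *Slc25a11* 0.48, *Slc25a28* 0.24, *Slc25a32* 0.099, *Slc25a33* 0.086, *Slc25a34* 0.21, *Slc25a38* 0.20, *Slc25a42* 0.28, *Slc25a46* 0.26, *Cpt1b* 0.43, *Mpc1* 0.053 and *Crat* 0.13. In that setting 26 of 26 members were above 0, and of these values those of *Slc25a3*, *Slc25a4*, *Slc25a11*, *Slc25a42*, *Slc25a46* and *Cpt1b* lay above the median of all genes and the others below it. With the deposited values *Slc25a3* had 0.26, *Slc25a4* 0.39, *Slc25a11* 0.31, *Slc25a24* -0.13, *Slc25a28* 0.080, *Slc25a34* 0.078, *Slc25a38* 0.030, *Slc25a42* 0.061, *Slc25a44* -0.046, *Slc25a46* 0.11, *Slc25a47* -0.050 and *Cpt1b* 0.24. With the processed signals *Slc25a4* had 0.16, *Slc25a11* 0.011 and *Slc25a47* -0.10, and with Cy5 alone *Slc25a4* had 0.053 and *Slc25a47* -0.0077. The mean of its probes gave *Slc25a3* 0.0014, array weights gave *Slc25a29* -0.0041, *Slc25a34* 0.084 and *Slc25a37* -0.028, and without the dimmest slide *Slc25a11* had 0.027, *Slc25a32* 0.020, *Slc25a37* -0.0054 and *Cpt1b* 0.022. Leaving out 1 array turned *Slc25a11* (-0.088 to 0.031), *Slc25a46* (-0.069 to 0.0094), *Cpt1b* (-0.080 to 0.017) and *Mpc2* (-0.00051 to 0.076).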
